A study of Mus musculus with 77 samples.

Results

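Small RNA libraries were made from the blood of 10 male mice of the inbred strain labelled DBA/2Crl (D2, DBA/2NCrl in the study's methods), and the question addressed here was how blood microRNA (miRNA) levels of stress-susceptible mice differed from those of same-strain controls. The comparison used 10 of the 77 libraries of the series, 5 susceptible against 5 control mice, and all miRNAs of the deposited blood miRNA table, of which 254 are named as 5p arms, 17 as 3p arms and 28 without an arm. A miRNA written below without an arm is its 5p row, or a row whose name has no arm. Susceptible mice had gone through chronic social defeat stress (CSDS), in which a mouse is defeated repeatedly by an unfamiliar aggressor and then kept in sensory contact with it, and had afterwards avoided an unfamiliar mouse in a social avoidance test. Control mice lived beside a changing neighbor behind a divider without physical contact. Mice of both groups were 8 weeks old at dissection, had taken the same behavioral tests, and gave trunk blood 6 to 8 days after the end of CSDS. The groups were read from the column names of the table. For 2 mice the sample labels disagree: ED4_1 has a susceptible column but is labelled a control, and ED4_15 has a control column but is labelled susceptible. The D2 fold changes that the study prints for miR-148a and miR-181b are those of the column groups, to the digits given. In the column groups, susceptible mice were 1.259-fold lower for miR-148a and 1.406-fold lower for miR-181b. The published comparison thus used the column groups, as far as these fold changes show. Which group is right for the 2 mice is not settled by this. Results are therefore also given with both mice left out (4 against 4) and with the groups of the labels. Mice labelled C57BL/6Crl (B6, C57BL/6NCrl in the study's methods), 5 susceptible and 5 control males of the same age, served for the comparison of strains. Together with 5 resilient B6 males of that age, they also entered the shared fit that set the spread behind each D2 result in limma.

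A miRNA is a short RNA that guides an Argonaute protein to messenger RNAs, mainly through its seed, and thereby lowers their translation or stability. Whole blood miRNA comes largely from red cells and their precursors, platelets and white cells, and the miRNAs of different lineages are well known: miR-451a, miR-144 and miR-486 belong to the erythroid lineage, miR-142, miR-150, miR-155 and miR-223 to lymphoid or myeloid cells, and miR-126 to endothelium and platelets. Many miRNAs are transcribed together, as from the Dlk1-Dio3 imprinted region, the intron of Sfmbt2 or the miR-17 to 92 clusters, so that members of a cluster are not independent measurements. In whole blood, fewer cells of a type and less RNA per cell cannot be told apart.

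The mature sequences of the miRNAs on which the comparison turns are shown first, with the seed (bases 2 to 8) in capitals. RefSeq (mouse assembly GRCm38.p6) gave a sequence for 253 of these miRNAs and for 25 of the 37 that passed the call described below. These 25 had 24 different seeds. The first set shows the measured members of the miR-181 family, which share one seed and were all lower in the susceptible group.
miR-181c-5p: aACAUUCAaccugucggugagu
miR-181d-5p: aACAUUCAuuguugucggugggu
miR-181b-5p: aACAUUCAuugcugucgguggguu

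miR-181c (chr8:84178924-84178945, minus strand) and miR-181d (chr8:84178759-84178781, minus strand) both lie in intronic sequence of Nanos3, while miR-181b has loci at chr1:137966650-137966673 and chr2:38853845-38853868. From the 5′ end, miR-181d differs from miR-181b by the substitution C12U, so reads of these family members could be assigned to the wrong one. The setting used for reads that match several mature miRNAs is not given in the sources used here. The next set shows let-7j beside let-7i, the second most abundant miRNA of these libraries. let-7j (chr3:140028281-140028304, plus strand, intergenic) differs from let-7i (chr10:122985698-122985719, minus strand, intergenic) by G8U, with positions counted from the 5′ end and the let-7i base given first. That substitution is the last base of the seed.
let-7i-5p: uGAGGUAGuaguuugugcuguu
let-7j: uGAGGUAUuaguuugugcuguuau

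A set of miRNAs with the miR-15 seed or close to it is shown because 2 relatives were called in opposite directions. miR-16 is produced from chr14:61631936-61631957 (an intron of Dleu2) and chr3:69009918-69009939 (an intron of Smc4). miR-503 (chrX:53054027-53054049, minus strand, intergenic) lies beside miR-322 (chrX:53054306-53054327), which carries the same seed as miR-16.
miR-16-5p: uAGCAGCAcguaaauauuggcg
miR-322-5p: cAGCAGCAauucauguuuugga
miR-503-5p: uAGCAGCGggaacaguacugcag

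The last set holds the other called miRNAs described by mouse. miR-21a lies in an exon of Vmp1 (chr11:86584120-86584141), miR-330 in an exon of Eml2 (chr7:19181486-19181507), miR-215 in an exon of the antisense gene 2010103J01Rik (chr1:185313610-185313630) and miR-592 in an exon of Grm8 (chr6:27936711-27936733). miR-541 (chr12:109742422-109742446) and miR-382 (chr12:109733781-109733802) lie in introns of Mirg in the Dlk1-Dio3 region, and miR-203b (chr12:112130887-112130908) is intergenic. The miRNAs of the Sfmbt2 intron, miR-140, miR-222, miR-486a, miR-486b and miR-6951 are named only.
miR-21a-5p: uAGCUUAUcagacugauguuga
miR-330-5p: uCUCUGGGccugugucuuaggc
miR-215-5p: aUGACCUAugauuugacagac
miR-592-5p: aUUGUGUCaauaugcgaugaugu
miR-541-5p: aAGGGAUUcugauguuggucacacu
miR-382-5p: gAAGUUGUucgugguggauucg
miR-203b-3p: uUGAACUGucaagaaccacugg

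The D2 libraries held 7399332 to 9052495 reads assigned to these miRNAs. Levels are given as log2 CPM (read counts scaled to a common library size), as deposited, so a difference of 1 is a doubling. The erythroid miR-451a alone took 28.1% to 38.3% of the reads of control mice and 23.5% to 39.1% of those of susceptible mice. let-7i took 9.15% to 14.0% and 8.78% to 14.2%, and let-7g was the next most abundant. Their levels did not pass the call: the log2 difference, susceptible minus control, was −0.26 (SE 0.17) for miR-451a, −0.20 (SE 0.17) for let-7i and −0.12 (SE 0.13) for let-7g. The 4 erythroid miRNAs together took 29.8% to 42.0% of control reads and 26.6% to 42.7% of susceptible reads. In a principal component analysis of the 10 libraries the first component held 29.5% of the variance and did not separate the groups. ED4_1, a mouse with disagreeing labels, lay at its lower end (−11.7), and the control ED6_40 at its upper end (7.82). The second component held 19.8% and followed the groups more closely. Controls lay at −0.852 (ED6_40) to 6.16 (ED6_39). Of the susceptible mice only ED3_4 (3.23) lay in that range. Below it were ED4_1 (−2.27), ED4_4 (−2.57), ED4_3 (−6.44) and ED6_5 (−9.74).

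Of all measured miRNAs, 37 (12.4%) were called in D2 susceptible against control mice, at an unadjusted p under 0.05 in limma and a fold change of at least 1.2. Of these, 13 (4.35%) were higher and 24 (8.03%) lower. The called-lower miRNAs included 2 of the 3 miR-181 miRNAs, miR-467 and miR-669 members of the Sfmbt2 intron, let-7j, miR-21a and miR-16, and the called-higher ones included miR-503, both miR-486 rows and miRNAs of the Dlk1-Dio3 region. The median difference over all miRNAs was 0.0135. This split depends on the scaling: with libraries scaled to the sum of their reads, 31 were higher and 11 lower, and the median of all miRNAs moved up by 0.165. Median-ratio scaling gave 18 higher and 20 lower. The ratio of the deposited effective library size to the reads was 0.878 to 1.225 in controls (median 1.055) and 1.075 to 1.203 in susceptible mice (median 1.15). All 37 kept their direction under both scalings. After Benjamini-Hochberg adjustment in limma over all miRNAs, 3 (1%) remained at an adjusted p under 0.05, all of them lower: miR-181c, miR-181d and miR-467c. These results rest on a fit that also held the B6 mice. With only the D2 mice in the fit, 9 were called higher and 16 lower, 24 of them among the 37. In that fit 0 had an adjusted p under 0.05 in limma. With single mice left out, 27 (without ED6_5) to 57 miRNAs (without ED6_40) were called. The number at an adjusted p under 0.05 in limma was then 0 without ED3_12, ED4_15, ED6_38, ED6_39, ED4_3 or ED6_5 (against 27 to 42 at an unadjusted p under 0.05), 1 without ED4_4, 2 without ED4_1, 3 without ED6_40 and 11 without ED3_4. The 10 libraries came from separate mice. Their names begin with ED3, ED4 or ED6, and what these prefixes mean is not given. The prefixes held 1 susceptible against 1 control mouse (ED3), 3 against 1 (ED4, where the control is ED4_15) and 1 against 3 (ED6). Within them, 25 of the 37 called miRNAs had the same direction in all 3 and the other 12 in 2 of 3. The 37 were chosen by their difference in these same mice. Agreement of direction in parts or other scalings of these data is therefore largely fixed in advance.

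With ED4_1 and ED4_15 left out, 37 miRNAs were again called (14 higher, 23 lower), of which 27 were shared with the comparison of all 10 mice, 73% of each set. Under the groups of the sample labels 26 were called (12 higher, 14 lower), 8.7% of all, with 14 shared, which is 37.8% of the first set and 53.8% of the second. All 37 kept their direction in both, which reuse most of the data by which they were chosen. In limma, 1 miRNA held an adjusted p under 0.05 with the 2 mice left out (miR-181d, adjusted p = 0.0418), and 0 did so under the label groups, against 27 at an unadjusted p under 0.05.

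**Figure D1:**
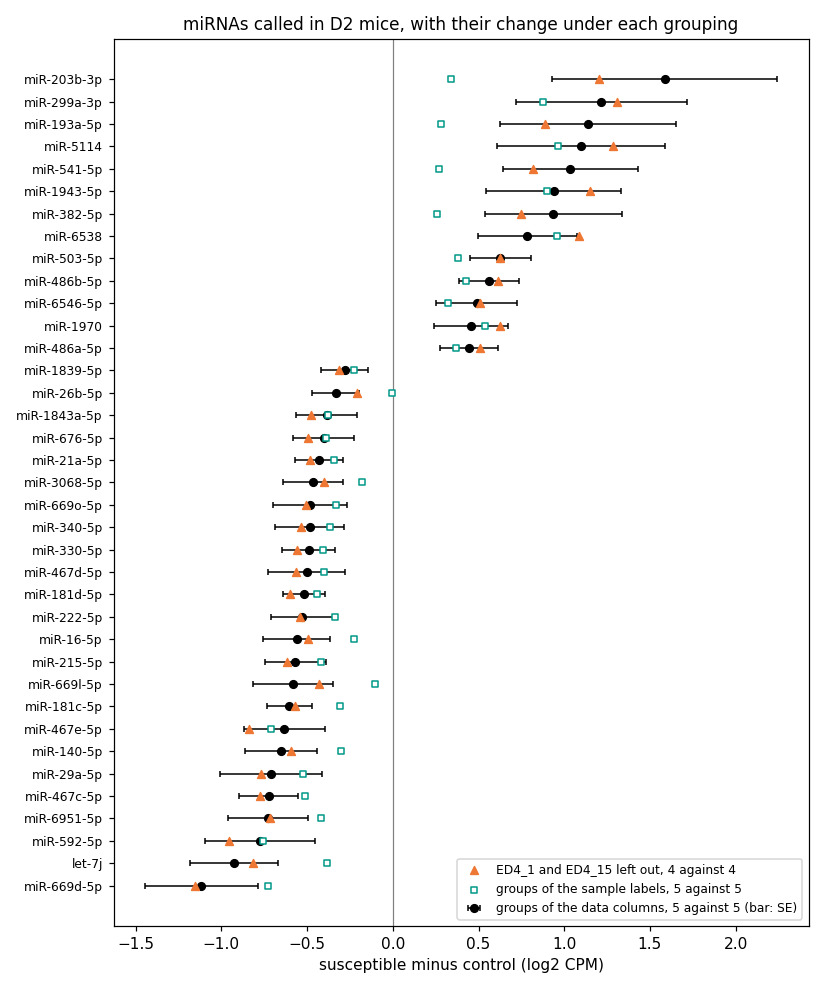
Log2 difference (susceptible minus control, x axis) of the 37 called miRNAs (y axis), with black circles and SE bars for all 10 D2 mice, orange triangles with ED4_1 and ED4_15 left out, and open green squares for the groups of the sample labels. Every symbol of a miRNA lies on the same side of 0, and most green squares lie nearer to 0 than the circles.

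The miR-181 family, known for its part in lymphocyte development and T cell receptor sensitivity, was measured by 3 members, all lower in the susceptible group. miR-181a was not among the measured miRNAs. Mice are listed here and below in a fixed order, which is ED3_12, ED4_15, ED6_38, ED6_39 and ED6_40 for controls and ED3_4, ED4_1, ED4_3, ED4_4 and ED6_5 for susceptible mice. miR-181c stood at 8.35, 8.50, 8.25, 8.52 and 7.97 log2 CPM in controls and at 8.01, 7.76, 7.60, 7.84 and 7.36 in susceptible mice. Only the lowest control (ED6_40) and the highest susceptible mouse (ED3_4) crossed. The means were 8.32 ± 0.23 and 7.71 ± 0.25 (SD, n = 5 each), a log2 difference of −0.60 (SE 0.13, limma adjusted p = 0.0306, exact permutation p = 0.0159). It was −0.57 without the 2 mice and −0.31 under the label groups, where it was no longer called.

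miR-181d stood at 8.29, 8.13, 7.97, 8.23 and 7.93 in controls and at 7.52, 7.94, 7.45, 7.58 and 7.47 in susceptible mice. The highest susceptible mouse was ED4_1, one of the mice with disagreeing labels, and it alone reached the lower edge of the control range. The difference was −0.52 (SE 0.12, limma adjusted p = 0.0342, exact permutation p = 0.0159), and −0.60 and −0.44 in the other groupings, both of them called. miR-181b had far fewer reads, 18 to 37 per D2 mouse, and the part of its 2 loci in this low count was not tested. It stood at 1.84, 2.18, 1.96, 2.31 and 1.84 in controls and 1.22, 1.78, 1.71, 1.43 and 1.54 in susceptible mice. The groups did not overlap. Its difference of −0.49 (SE 0.24) missed the call in limma (p = 0.0533, adjusted p = 0.364), while the exact permutation p was 0.00794, the smallest that 5 against 5 mice can give. The study, from its own fit and at the same thresholds, reports miR-181b as lower in these mice. Averaged over the 3 members, the level was 5.91 to 6.35 in controls and 5.46 to 5.83 in susceptible mice. The family had 0 of 3 called higher and 2 of 3 called lower, with a median difference of −0.52, and the same counts without the 2 mice. Under the label groups 1 of 3 was called lower (median −0.33).

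**Figure D2:**
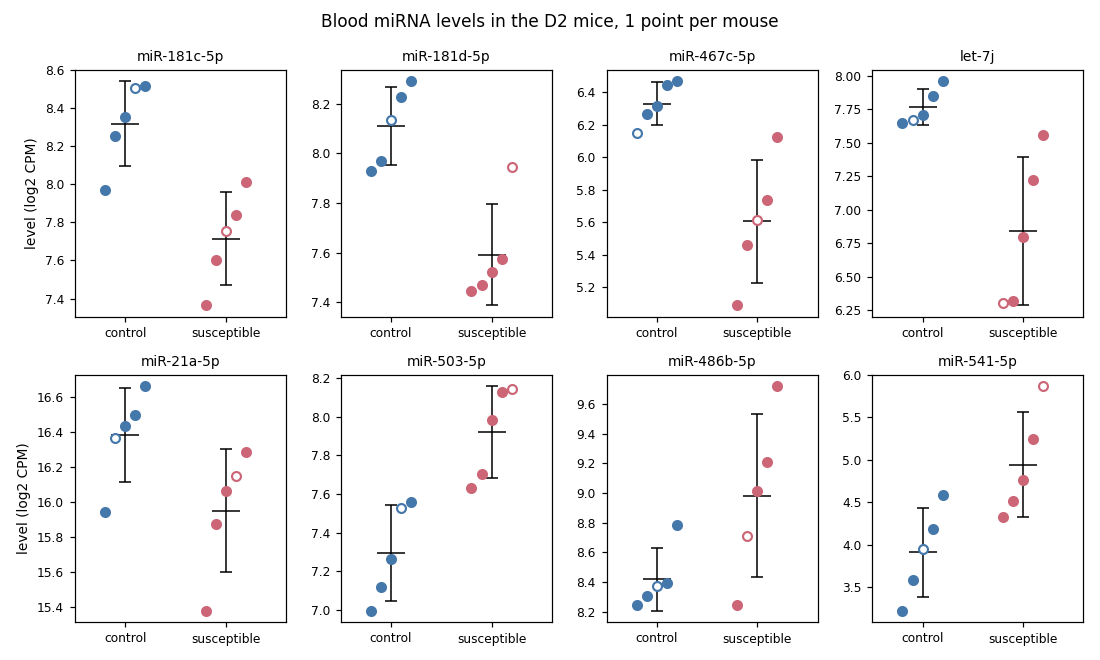
Log2 CPM (y axis) of 8 miRNAs in each D2 mouse, controls in blue and susceptible mice in red, with bars for the mean ± SD of 5 mice and open points for the 2 mice with disagreeing labels. miR-467c, let-7j and miR-503 show no overlap between the groups, and miR-181c and miR-181d overlap by a single mouse in each group.

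let-7j was the let-7 member that was called. The let-7 family restrains growth and stem cell programs through targets such as Lin28 and Ras, though the seed of let-7j differs at its last base, as shown above. let-7j stood at 7.96, 7.67, 7.71, 7.85 and 7.65 in controls and at 7.56, 6.30, 6.79, 7.22 and 6.32 in susceptible mice. No susceptible mouse reached the control range, and the spread was wider among susceptible mice (SD 0.55) than among controls (SD 0.13). The difference was −0.93 (SE 0.26, limma adjusted p = 0.0968, exact permutation p = 0.00794). It was −0.82 without the 2 mice, and −0.38 under the label groups, where the call was lost. Since let-7j and let-7i differ as shown above, their reads were set against each other: per 1000 let-7i reads, controls had 1.87, 1.86, 1.92, 2.21 and 1.80 let-7j reads and susceptible mice 1.72, 0.949, 0.897, 1.33 and 1.09. The groups did not overlap on this ratio either, but it largely follows let-7j itself, as let-7i differed little. let-7j reads were few beside those of let-7i, from which let-7j differs at 1 base. The part of misassigned let-7i reads was not tested. Over the 10 measured let-7 miRNAs 0 were called higher and 1 lower, with a median of −0.09, which turned to 0.07 when libraries were scaled to the sum of reads. let-7f was at −0.37 (SE 0.27), let-7e at 0.29 (SE 0.21) and let-7d at 0.28 (SE 0.15), all 3 without a call. Without the 2 mice 1 was called higher (let-7d, 0.42) and 1 lower, and under the label groups 1 higher (let-7d, 0.40) and 0 lower. The call of let-7d was also gained without ED6_40 (0.33), ED3_4 (0.39) or ED4_1 (0.38), and that of let-7e without ED3_4 (0.44).

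The Sfmbt2 intron holds a rodent miRNA cluster of closely similar miR-297, miR-466, miR-467 and miR-669 copies, whose counts are uncertain because reads can match several of them. Of its 11 measured members, 6 were called lower and 0 higher, against 8.03% and 4.35% of all miRNAs, and 10 of 11 lay below 0, with a median of −0.50. miR-467c stood at 6.47, 6.15, 6.44, 6.27 and 6.31 in controls and 6.13, 5.61, 5.74, 5.46 and 5.09 in susceptible mice. The highest susceptible mouse (ED3_4) lay just under the lowest control (ED4_15). The difference was −0.72 (SE 0.17, limma adjusted p = 0.0342, exact permutation p = 0.00794), and it stayed called at −0.77 without the 2 mice and −0.51 under the label groups.

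miR-669d, at a lower level, stood at 2.75, 2.59, 2.49, 3.36 and 2.11 in controls and 2.31, 1.63, 0.73, 2.06 and 0.99 in susceptible mice. One susceptible mouse lay within the control range. Its difference was −1.12 (SE 0.33, limma adjusted p = 0.116), −1.15 without the 2 mice and −0.73, not called, under the label groups. miR-467e differed by −0.63 (SE 0.23) and miR-669l by −0.58 (SE 0.23). The call of miR-467e was lost without the susceptible mouse ED6_5 (−0.42), and that of miR-669l without ED4_15 (−0.50) or ED4_1 (−0.51). Counted over the cluster, 4 of 11 were called lower without the 2 mice (median −0.56) and 3 of 11 under the label groups (median −0.40), where miR-297b was 1 of the 3 (−1.51). miR-297b had only 0 to 10 reads per D2 mouse, with 0 in ED4_15, which is susceptible by its label. Leaving out single mice gave 3 to 6 called members, with 3 when ED4_1 or ED6_5 was left out. In the same mice the host transcript Sfmbt2 differed by −0.34 (SE 0.21), without a call. It stood at 3.29, 2.98, 3.13, 3.35 and 3.41 in controls and 2.81, 3.00, 2.90, 2.81 and 2.94 in susceptible mice. The groups crossed only between ED4_1 and ED4_15, the 2 mice with disagreeing labels.

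**Figure D3:**
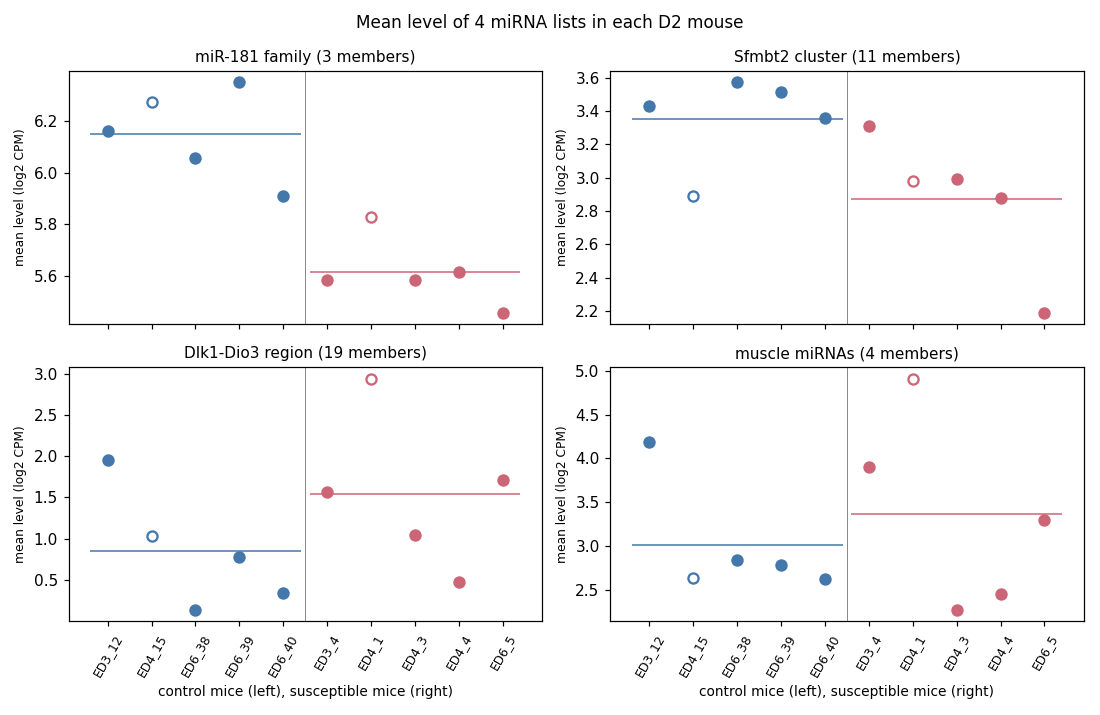
Mean log2 CPM (y axis) over the miR-181 family (3 miRNAs), the Sfmbt2 intron cluster (11), the Dlk1-Dio3 region (19) and muscle miRNAs (4) in each D2 mouse (x axis), with group means as lines and open points for the 2 mice with disagreeing labels. The miR-181 means do not overlap between groups, and the Dlk1-Dio3 and muscle means are highest in ED4_1 among susceptible mice and in ED3_12 among controls.

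Among the other called-lower miRNAs, miR-21a was by far the most abundant, at 7.52% to 10.1% of control reads and 5.13% to 8.61% of susceptible reads. It is a widely expressed miRNA that is induced in activated immune cells. Its level was 16.44, 16.37, 16.50, 16.66 and 15.94 log2 CPM in controls and 16.29, 16.15, 15.88, 16.07 and 15.38 in susceptible mice. The groups overlapped only through the low control ED6_40. The difference was −0.43 (SE 0.14, limma adjusted p = 0.13, exact permutation p = 0.0556), −0.48 without the 2 mice and −0.34 under the label groups, called in each. It shrank to −0.10 and lost the call under quantile normalization. Its host transcript Vmp1 differed by −0.19 (SE 0.17), without a call.

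miR-16, which restrains the cell cycle and Bcl2, stood at 9.23, 9.47, 9.19, 9.37 and 9.44 in controls and 9.32, 8.64, 8.45, 9.12 and 8.38 in susceptible mice. Only ED3_4 among the susceptible mice reached the control range. The difference was −0.56 (SE 0.19, limma adjusted p = 0.191, exact permutation p = 0.0317), −0.49 without the 2 mice and −0.23 without a call under the label groups. It differs from miR-195a by A10G and G11U (the miR-195a base first), which makes the split of reads between them uncertain. The part of the 2 loci of miR-16 in its read counts was not tested. Of the 6 measured miRNAs with the seed of miR-16, 0 were called higher and 1 lower, with a median of −0.22. Of the 7 of the wider family, which adds miR-503, 1 was called higher and 1 lower (median −0.18). Without the 2 mice these were 1 and 2, and under the label groups 0 and 1, with miR-497a called lower in both (−0.54 and −0.60).

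miR-330 had groups that did not overlap, at 5.05, 5.25, 5.42, 5.51 and 5.08 in controls and 4.90, 5.04, 4.73, 4.87 and 4.31 in susceptible mice. The gap between ED4_1, the highest susceptible mouse, and the lowest control was narrow. The difference was −0.49 (SE 0.15, limma adjusted p = 0.13, exact permutation p = 0.00794), and −0.56 and −0.41 in the other groupings, both called. The call was lost when libraries were scaled to the sum of reads (−0.33).

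miR-215, a p53-responsive miRNA, stood at 5.70, 5.31, 5.52, 5.54 and 5.14 in controls and 5.32, 4.94, 4.90, 4.82 and 4.38 in susceptible mice. Only ED3_4 lay inside the control range. It differed by −0.57 (SE 0.18, limma adjusted p = 0.13), −0.62 without the 2 mice and −0.42 under the label groups, called in all 3. Its relative with the same seed, miR-192, was at 0.08 without a call, so 1 of the 2 was called lower (median −0.25). miR-140, best known from cartilage and encoded in Wwp2, differed by −0.65 (SE 0.21, limma adjusted p = 0.13) and was at −0.60 without the 2 mice and −0.30, not called, under the label groups. miR-222, measured here by its 5p arm, differed by −0.53 (SE 0.19, limma adjusted p = 0.197), and its cluster partner miR-221 was at −0.25 without a call (median of the pair −0.39). miR-222 lost its call under the label groups (−0.34). miR-6951 (−0.73, SE 0.23) and miR-3068 (−0.47, SE 0.17) complete the 15 called-lower miRNAs of smallest p. The call of miR-6951 was lost under the label groups (−0.42), and that of miR-3068 without the 2 mice (−0.40), under the label groups (−0.18) and without ED6_5 (−0.36).

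miR-503, an X-linked miRNA that targets cyclins and is transcribed with miR-322, was the called-higher miRNA of smallest p. It stood at 7.00, 7.53, 7.26, 7.56 and 7.12 in controls and 8.13, 8.15, 7.98, 7.63 and 7.71 in susceptible mice. Each susceptible mouse lay above each control. The difference was 0.63 (SE 0.18, limma adjusted p = 0.102, exact permutation p = 0.00794), 0.63 without the 2 mice and 0.38, without a call, under the label groups. Its neighbors were not called: miR-322 was at 0.19, miR-351 at 0.05 and miR-542 at −0.05, so that 1 of 4 cluster members was called higher and 0 lower (median 0.12), and 0 under the label groups.

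Of the 4 erythroid rows, 2 were called higher, both of them miR-486 rows, and 0 lower, with a median of 0.23. miR-486b stood at 8.24, 8.37, 8.31, 8.39 and 8.78 in controls and 8.25, 8.71, 9.21, 9.01 and 9.72 in susceptible mice. The groups overlapped: ED3_4 lay below all controls but ED3_12, and ED4_1 below the control ED6_40. It differed by 0.56 (SE 0.18, limma adjusted p = 0.13, exact permutation p = 0.0794), and by 0.62 and 0.43 in the other groupings, both called. miR-486a differed by 0.44 (SE 0.17) and lost its call without the susceptible mouse ED6_5 (0.27). The mature sequences of miR-486a and miR-486b are so close that the rows may share reads, and their levels moved alike across mice. These 2 calls are therefore not independent and may stand for 1 molecule. The other erythroid miRNAs, miR-451a and miR-144 (0.01, SE 0.26), were not called. miR-451a gained a call without the control ED6_40 (−0.38). The transcript Ank1, which hosts miR-486, differed by −0.17 (SE 0.31) without a call.

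The Dlk1-Dio3 region is an imprinted cluster expressed from the maternal chromosome. Of its 19 measured members, 3 were called higher and 0 lower, against 4.35% and 8.03% of all miRNAs. Above 0 lay 18 of 19, with a median of 0.73, against 0.0135 over all miRNAs. Several members were scarce. Reads per D2 mouse were 0 to 12 for miR-673 and 0 to 26 for miR-136 and miR-493, but 203 to 1613 for miR-379. miR-541 stood at 4.59, 3.95, 3.59, 3.22 and 4.19 in controls and 4.52, 5.87, 4.76, 4.33 and 5.24 in susceptible mice. The highest value belonged to ED4_1 and the highest control value to ED3_12. The difference was 1.04 (SE 0.39, limma adjusted p = 0.235, exact permutation p = 0.0238), and without ED4_1 it was 0.80 and not called. It was 0.82 without the 2 mice and 0.27 under the label groups, with no call in either.

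miR-382 stood at 3.44, 2.79, 1.78, 2.46 and 2.72 in controls and 3.06, 4.49, 3.15, 3.40 and 3.77 in susceptible mice. Again ED3_12 and ED4_1 were the highest of their groups. The difference of 0.94 (SE 0.40, limma adjusted p = 0.288) lost its call without ED6_38 (0.72), ED4_1 (0.71) or ED6_5 (0.89), without the 2 mice (0.75) and under the label groups (0.26). The third called member, miR-299a-3p, differed by 1.22 (SE 0.50), and its call was lost without ED6_38 (0.86), ED6_40 (0.91), ED3_4 (1.09), ED4_1 (1.02) or ED6_5 (1.08). It had 3 to 39 reads per D2 mouse, with 3 in ED6_38 and 4 in ED6_40. miR-485 (0.91, SE 0.46) was not called with all mice and was called without ED3_12 (1.14), ED6_39 (1.09), ED3_4 (1.04) or ED4_4 (1.18).

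For the region as a whole, 1 of 19 was called higher without the 2 mice (median 0.43) and 0 under the label groups, where the median turned to −0.03. Leaving out single mice gave 0 called members without ED4_1 (median 0.41) and 7 without ED3_12 (median 1.03). The region mean per mouse was 1.95, 1.04, 0.142, 0.779 and 0.337 in controls and 1.56, 2.93, 1.04, 0.480 and 1.71 in susceptible mice. The groups overlapped, and ED3_12 and ED4_1 led them. The mean of the 4 muscle miRNAs (miR-1a-1, miR-145a and both arms of miR-143) moved alike across mice, at 4.19, 2.64, 2.84, 2.78 and 2.62 in controls and 3.91, 4.91, 2.27, 2.46 and 3.29 in susceptible mice. Here too ED3_12 and ED4_1 were the highest. The muscle list had 0 called in either direction, with a median of 0.25, which was −0.10 without the 2 mice. Under the label groups the median was −0.41 and 1 of 4 was called lower, miR-143-5p (−1.66), which had only 1 to 17 reads per D2 mouse. The part of the muscle miRNAs in the Dlk1-Dio3 values was not tested.

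The remaining called-higher miRNAs were scarce. miR-203b-3p stood at 1.68, 0.39, 0.75, −0.01 and 0.59 in controls and 1.79, 3.51, 1.85, 2.02 and 2.16 in susceptible mice, with 7 to 25 reads in controls and 27 to 97 in susceptible mice. The groups did not overlap, though ED3_12 came close to the lowest susceptible mouse. Its difference of 1.59 (SE 0.65, limma adjusted p = 0.285, exact permutation p = 0.00794) lost its call without ED6_39 (1.41) or ED4_1 (1.27), without the 2 mice (1.202) and under the label groups (0.34). miR-6538 differed by 0.79 (SE 0.29, limma adjusted p = 0.229), 1.09 without the 2 mice and 0.96 under the label groups, called in all 3. miR-1943 (0.94, SE 0.39) lost its call without ED6_40 (0.60), ED3_4 (0.84) or ED6_5 (0.82). miR-5114 (1.098) lost it without ED3_12 (0.50), ED4_3 (0.99) or ED4_4 (0.96).

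miR-193a (1.14), miR-1970 (0.46) and miR-6546 (0.49) lost their call without any of 6, 5 and 7 mice, respectively. miR-193a then ranged from 0.91 (without ED6_5) to 1.13 (without ED4_3), and ED4_15 (1.00), ED6_39 (1.11), ED6_40 (1.03) and ED4_1 (1.03) lay between. miR-1970 was at 0.41 without ED6_38, 0.31 without ED6_39, 0.27 without ED4_3, 0.39 without ED4_4 and 0.48 without ED6_5. miR-6546 was at 0.51 without ED4_15, 0.36 without ED6_39, 0.40 without ED6_40, 0.48 without ED3_4, 0.48 without ED4_1, 0.47 without ED4_4 and 0.48 without ED6_5.

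miR-592, encoded in the glutamate receptor gene Grm8, was called lower at 1.37, 1.67, 2.27, 2.19 and 1.02 in controls and 0.53, 1.63, 0.82, 0.12 and 1.54 in susceptible mice. The groups overlapped. The difference was −0.77 (SE 0.32, limma adjusted p = 0.285, exact permutation p = 0.0714), −0.96 without the 2 mice and −0.76 under the label groups, called in each. Its call was lost without ED6_38 (−0.63), ED6_39 (−0.65), ED3_4 (−0.67) or ED4_4 (−0.57). miR-148a was measured by its 5p arm and stood at 2.61, 2.59, 2.52, 2.93 and 2.67 in controls and 2.28, 2.35, 2.38, 2.21 and 2.46 in susceptible mice. The groups did not overlap, but the difference of −0.33 (SE 0.17) missed the call (limma p = 0.0599, adjusted p = 0.364, exact permutation p = 0.00794). The study, from its own fit and at the same thresholds, reports miR-148a as lower in these mice. With miR-148b (−0.28), 0 of 2 members of that family were called (median −0.31).

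In all, 8 miRNAs (2.68%) had groups that did not overlap, 3 with higher levels in susceptible mice (1%) and 5 with lower (1.67%). They were let-7j, miR-467c, miR-330, miR-203b-3p and miR-503, which were called, and miR-146b, miR-148a and miR-181b, which were not. miR-146b, a brake on NF-kB signaling, was higher in each susceptible mouse with a difference of 0.25 (SE 0.16, limma adjusted p = 0.479). The gap was very narrow, with the lowest susceptible mouse (ED3_4) at 8.855 and the highest control (ED6_40) at 8.851. With 4 against 4 mice 13 did not overlap (4.35%), and under the label groups all overlapped. The counts of 8 and 13 are not comparable. A random split separates the groups fully in either direction with a probability of 0.00794 for 5 against 5 but 0.0286 for 4 against 4.

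The other lists held few calls. Of the 7 lymphoid and myeloid miRNAs, miR-21a was the only one called, lower (median −0.04, and 0.13 when libraries were scaled to the sum of reads), while miR-155, induced in inflammation, was at 0.35 (SE 0.28) and miR-142a at −0.34 (SE 0.37). miR-142a had a low control, ED6_40, without which it was −0.73 and called. miR-126a, the single endothelial and platelet miRNA and measured by its 5p arm only, was at −0.47. It gained a call without ED6_40 (−0.63) or ED4_1 (−0.60). None of 3 liver miRNAs was called (median −0.31), among them miR-122 at −0.78, which was called without ED4_3 (−1.30), and miR-194 at −0.31, which was called without ED6_40 (−0.39) or ED3_4 (−0.44). The single brain miRNA, miR-128, also measured by its 5p arm only, was at −0.11. Of the 12 members of the miR-17 to 92 clusters, which promote proliferation of blood precursors, 0 were called, although 11 lay below 0 with a median of −0.14, and this median turned to 0.02 when libraries were scaled to the sum of reads. Without the 2 mice and under the label groups, miR-25-5p was called higher (0.48 and 0.42) and miR-363-5p lower (−0.71 and −0.68). All 12 members were measured by their 5p arms only, and miR-363-5p had 11 to 26 reads per D2 mouse.

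The smaller families had at most 1 call each. The miR-26 family had 1 of 2 called lower (miR-26b, −0.33, median −0.20), and that call was lost without ED4_15 (−0.27), ED6_39 (−0.26) or ED4_1 (−0.27), without the 2 mice (−0.21) and under the label groups (−0.01). The miR-29 family, measured here by its 5p arms, had 1 of 4 called lower (miR-29a-5p, −0.71) beside a median of 0.39. miR-29a lost its call without ED6_38 (−0.67), ED6_39 (−0.51) or ED4_3 (−0.39) and under the label groups (−0.52). The miR-30 family had 0 of 6 called in either direction (median −0.02), and without the 2 mice 1 was called lower, miR-30f (−1.09). miR-30f had only 1 to 11 reads per D2 mouse, with 1 in ED6_5.

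The same contrast in B6 mice called 10 miRNAs (3.34%), 6 higher and 4 lower, with 0 at an adjusted p under 0.05 in limma and 10 at an unadjusted p under 0.05. The D2 change differed from the B6 change by the call for 20 miRNAs (6.69%), 17 of them more negative in D2 and 3 more positive, again with 0 at an adjusted p under 0.05 in limma and 20 at an unadjusted p under 0.05. With the 2 mice left out 17 were called, and 13 without ED6_5 or under the label groups. The 3 with the smallest p were let-7j (difference of differences −1.42, SE 0.36, limma adjusted p = 0.179), miR-181b (−1.22, SE 0.34, limma adjusted p = 0.232) and miR-16 (−0.92, SE 0.28, limma adjusted p = 0.256). In B6 these had log2 differences of 0.49, 0.73 and 0.37, of which that of miR-181b was called higher.

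All 3 miR-181 members differed between strains by the call. For miR-181d the D2 minus B6 difference was −0.49 (SE 0.18, limma adjusted p = 0.394), and for miR-181c it was −0.40 (SE 0.18, limma adjusted p = 0.708) but −0.36 without the 2 mice, where it was not called. The Sfmbt2 cluster had 3 members so called (miR-467c, miR-669d and miR-669l), with a median change of 0.15 in B6. miR-148a, miR-330 and miR-140 also differed, by −0.75 (SE 0.24), −0.64 (SE 0.22) and −0.85 (SE 0.30). miR-503 and miR-592 moved in the same direction in both strains. miR-503 was at 0.64 in B6, where it was called higher, and the difference between strains was −0.02 (95% confidence interval −0.54 to 0.50). miR-592 was at −0.77 in B6, where it was called lower, and the difference was −0.00214 (95% confidence interval −0.94 to 0.93).

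**Figure D4:**
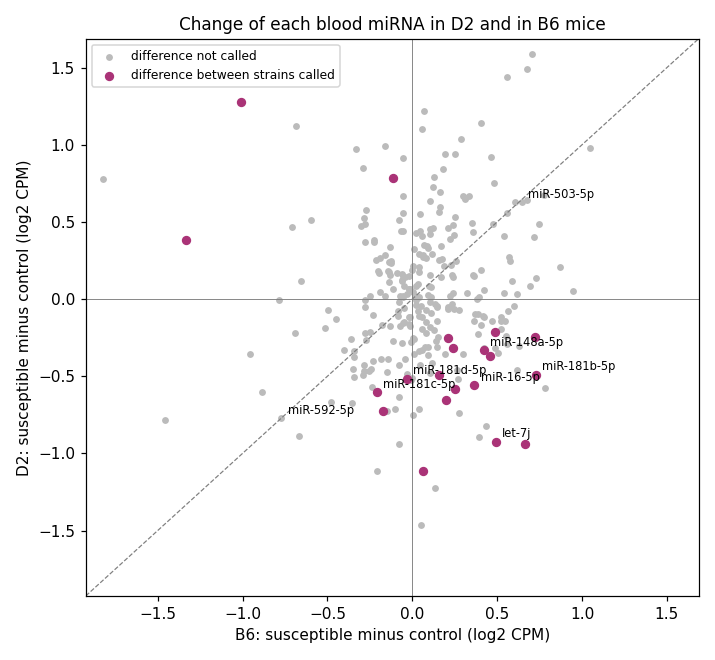
Log2 difference, susceptible minus control, in D2 (y axis) against B6 (x axis) for all measured blood miRNAs, with the 20 miRNAs whose change differed between strains by the call in purple and the line of equality dashed. let-7j, miR-181b and miR-16 lie below the line, at negative D2 and positive B6 values, while miR-503 and miR-592 lie on it.

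Blood messenger RNA of the same D2 mice, where 890 of 13084 genes (6.8%) were called by the same rule, gave the levels of cell type markers beside these miRNAs. The mean of 5 platelet transcripts was 9.12 to 10.1 log2 CPM in controls and 7.64 to 9.32 in susceptible mice, a difference of −0.78 (exact permutation p = 0.0397). Of these, 3 were called lower, Pf4 (−0.82, SE 0.33), Ppbp (−0.87, SE 0.37) and Itga2b (−0.86, SE 0.39), and 0 higher. All 3 lost the call without the 2 mice (−0.75, −0.78 and −0.83) and under the label groups (−0.39, −0.38 and −0.47). The list was at −0.73 without the 2 mice (exact permutation p = 0.114, with 0.0286 the smallest that 4 against 4 can give) and at −0.38 under the label groups (exact permutation p = 0.357). Its exact permutation p was over 0.05 without any one of ED3_12, ED4_15, ED6_38, ED6_39, ED6_40, ED4_1 or ED6_5, where the difference was −0.85 (without ED6_39) to −0.54 (without ED6_5). The mean of 5 B cell transcripts was 0.38 higher (exact permutation p = 0.0952), and Cd79a (0.56, SE 0.23) was called higher, though not under the label groups (0.38). Without ED4_3 it was 0.50 higher (exact permutation p = 0.0238).

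The means of erythroid (−0.27, exact permutation p = 0.397), neutrophil (0.03, p = 0.937), monocyte (0.01, p = 0.976), T cell (−0.02, p = 0.889) and NK cell (−0.01, p = 1) transcripts had exact permutation p values over 0.05. Without the 2 mice and under the label groups, the erythroid mean was at −0.04 and 0.21, the neutrophil mean at −0.26 and −0.45 and the monocyte mean at −0.14 and −0.22, so that each changed sign in at least 1 of these groupings. Of the 10 erythroid transcripts 1 was called lower, Hba-a2 (−0.998, SE 0.48), and it was not called in either other grouping (−0.76 and −0.22). These libraries had been depleted of globin transcripts. The part of platelet and B cell numbers in the miRNA differences was not tested.

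**Figure D5:**
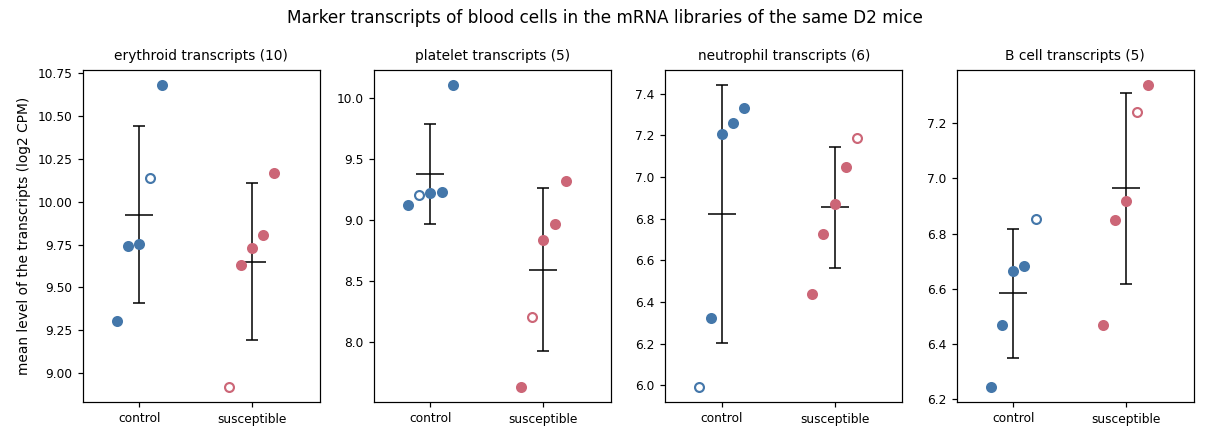
Mean log2 CPM (y axis) of erythroid (10), platelet (5), neutrophil (6) and B cell (5) transcripts in the blood messenger RNA of each D2 mouse, controls in blue and susceptible mice in red, with bars for mean ± SD and open points for the 2 mice with disagreeing labels. Platelet transcripts are lower in most susceptible mice, with overlap between the groups.

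For 12 called miRNAs with a RefSeq position, a host gene was measured in the blood messenger RNA, giving 13 pairs. Sfmbt2, Ank1 and Wwp2 (−0.14, SE 0.19, not called), whose miRNAs have no position in that table, are outside this count. The pair had the same sign in 10 of 13, and 1 host was called: Scd2, a fatty acid desaturase that hosts miR-5114, differed by 0.45 (SE 0.15, limma adjusted p = 0.686). It was at 0.41 and called without the 2 mice, and at 0.20 without a call under the label groups. The hosts of miR-16 were at −0.01 (Dleu2) and −0.24 (Smc4), and that of miR-330 was at −0.01 (Eml2), all without a call.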

How the data were processed

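Trunk blood was taken into EDTA and TRIzol LS, and the authors made small RNA libraries with the NEXTflex Small RNA-Seq Kit, size-selected and sequenced them, and counted reads on mature miRNAs with miRDeep2 after trimming with FastX and PRINSEQ. Bowtie 1.1.1 was the aligner per the labels. The deposited values are log2 CPM from voom, after the authors kept miRNAs with at least 1 CPM in at least 6 samples. The deposited blood mRNA values, from globin-depleted libraries, are log2 CPM as well. The values of every miRNA library resolved to whole reads (100% of values, tolerance 1e-04), which gave the depths.

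All 25 blood miRNA libraries, in 5 groups of strain and phenotype, entered one fit in limma 3.58.1 (R 4.3.3, empirical Bayes with a mean-variance trend, two-sided), with Benjamini-Hochberg adjustment over all miRNAs. A miRNA or gene was called where p was under 0.05 and the fold change reached 1.2. Exact permutation tests were two-sided, over the 252 splits of 10 mice. The blood mRNA was fitted alike, and a marker list was tested on its mean log2 CPM. Scripts were tested on simulated data. Figures used Python 3.11.15 and matplotlib 3.10.9.

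Named miRNAs were the 15 called of smallest p in each direction, the 3 most abundant and the 3 of smallest p for the difference between strains. They also included miR-148a, miR-181b and miR-592, which the study reports as changed in these mice before adjustment. Each list added its 2 to 4 members of smallest p. The host genes, the marker transcripts named singly, and miR-297b, miR-363 and miR-497a were chosen after their values were seen, as were the alternatives for the marker lists. Not every called marker transcript is reported singly here. The members, lists and tests were chosen with earlier results of these data known. Lists covered erythroid, lymphoid and myeloid, endothelial and platelet, liver, muscle and brain miRNAs, the Sfmbt2, Dlk1-Dio3 and miR-322 to miR-503 clusters, and the seed families given above. miRNA sequences and positions were from RefSeq and GRCm38 annotation.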

Additional observations from a re-analysis of the deposited data

Results flagged for a closer look

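For each of 72 miRNAs in both groups of 5 mice (144 groups), the highest or lowest mouse was compared with the rest, and in 12 groups it stood far apart. Chance flags about 1 in 20 groups, and these groups share mice and are not independent. In the control ED6_40, miR-486b was at 8.78 log2 CPM (other controls 8.24 to 8.39), miR-486a at 9.09 (8.69 to 8.77), miR-144 at 13.7 (15.2 to 15.6), miR-142a at 9.65 (11.3 to 11.7) and miR-30e at 14.0 (15.3 to 15.5). In the control ED3_12, miR-5114 was at −2.40 (0.08 to 1.02) and let-7i at 17.02 (16.7 to 16.8). In the susceptible mouse ED4_1, whose labels disagree, miR-203b-3p was at 3.51 (other susceptible mice 1.79 to 2.16) and miR-181d at 7.94 (7.45 to 7.58). In the susceptible mouse ED4_3, miR-6546 was at 1.76 (1.97 to 2.02) and miR-29a at 0.64 (2.10 to 2.35). In the susceptible mouse ED3_4, miR-351 was at 0.10 (1.52 to 1.94).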

How the results depend on the processing

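No paired analysis was possible because the D2 mice of the groups share no replicate number that pairs them. Against 3 miRNAs at an adjusted p under 0.05 in limma, 0 were found under the label groups, with only the D2 mice in the fit, without the mean-variance trend, scaled to the sum of reads or with the name prefix as a covariate (against 27, 25, 42, 44 and 34 at an unadjusted p under 0.05, respectively), and 1 was found without ED4_1 and ED4_15 or under quantile normalization. Sample weights gave 4, and median-ratio scaling, voom weights, log2(CPM + 1) and the filter at a mean log2 CPM of 2 gave 3 each. With single mice left out, this number was 0 to 11, the number called 27 to 57 and the number that differed between strains 13 to 26, against 13 under the label groups. Platelet transcripts were at −0.38 under the label groups and −0.73 without the 2 mice, and at −0.96 to −0.54 with single mice left out. B cell transcripts were then at 0.29 to 0.50. The causes were not tested. All 37 called miRNAs kept their direction under each setting that tested them (29 of them under the filter). These settings reuse the mice by which the 37 were chosen. Over the settings other than single mice left out, 742 values kept their side of the threshold, 64 fell below it, 38 rose past it and 0 reversed. With single mice left out these were 634, 50, 36 and 0. The part of depth in the SEs was not tested: it was 0.65 for miR-203b-3p (7 to 97 reads in a library) but 0.24 for the also scarce miR-181b.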
